A study of Mus musculus with 4 samples.

Results

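The genes described here lie beside the HoxA and HoxD clusters of the mouse and are not Hox genes themselves. The 10 listed were chosen among genes at these positions with earlier results of these data known. The list leaves out some neighbours, such as Atp5g3 between Atf2 and Lnpk. On chromosome 6, Evx1, Hibadh and Tax1bp1 follow the Hoxa13 end of HoxA and Skap2 lies on the opposite side of the cluster. On chromosome 2, Evx2, Lnpk, Atf2 and Chn1 lie on the Hoxd13 side of HoxD, and Mtx2 and Hnrnpa3 on its Hoxd1 side. Of the 45101 probe sets of the array, 22 carried the symbol of exactly 1 of these genes. They covered 9 of the 10 genes, 4 beside HoxA and 5 beside HoxD. The 4 probe sets that name Hnrnpa3 are shared with the pseudogene Gm6793, so Hnrnpa3 had no probe set of its own.

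RNA came from the autopod, the distal limb bud that forms hand or foot, cut out to match the Hoxd13 expression domain. All embryos were C57BL/6 at E11.25 (embryonic day), and the design text states that fore- and hindlimb buds were both used. The 2 Hox13dKO samples carried 2 homozygous lesions, a Hoxa13 null allele and a deletion of Hoxd11, Hoxd12 and Hoxd13, and the 2 control samples were wild type. Each sample was hybridised to 1 Affymetrix array, and the titles describe them as biological replicates. How many embryos went into a sample is not stated in the labels. The deletion removes DNA between Evx2 and Hoxd10, so in this design the loss of the Hox products, the lost DNA next to Evx2 and the Hoxa13 allele cannot be told apart.

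In the limb bud the late wave of Hoxd gene expression is driven by enhancers scattered through the gene-poor region on the Hoxd13 side of HoxD, while enhancers on the Hoxd1 side act earlier and more proximally. Autopod enhancers of HoxA lie likewise beyond Hoxa13, among the genes that follow it. Genes embedded in such a landscape can respond to its enhancers without a known part in limb patterning, and are then called bystanders. Evx2 and Lnpk, next to Hoxd13, are the textbook case at HoxD.

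The promoters of Evx1, Evx2 and Lnpk are shown because these genes lie nearest to the Hox13 ends of the clusters. Each stretch runs 5′ to 3′ along the gene's strand, from 250 bases before to 50 bases after the annotated start, in RefSeq assembly GRCm38.p6. The windows are chr6:52313248-52313547 (plus strand) for Evx1, chr2:74659508-74659807 (minus strand) for Evx2 and chr2:74578899-74579198 (minus strand) for Lnpk. Capitals mark CAATAAA in Evx1 and Evx2, a letter string like those that HOX13 proteins bind, and CCAAT, read on the reverse strand as ATTGG, in Lnpk.
Evx1: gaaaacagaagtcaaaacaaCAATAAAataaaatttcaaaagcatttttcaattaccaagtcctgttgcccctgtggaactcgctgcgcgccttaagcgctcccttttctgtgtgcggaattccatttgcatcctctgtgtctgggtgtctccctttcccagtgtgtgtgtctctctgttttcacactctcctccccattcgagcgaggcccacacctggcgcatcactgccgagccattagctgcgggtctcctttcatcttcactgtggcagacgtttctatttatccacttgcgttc
Evx2: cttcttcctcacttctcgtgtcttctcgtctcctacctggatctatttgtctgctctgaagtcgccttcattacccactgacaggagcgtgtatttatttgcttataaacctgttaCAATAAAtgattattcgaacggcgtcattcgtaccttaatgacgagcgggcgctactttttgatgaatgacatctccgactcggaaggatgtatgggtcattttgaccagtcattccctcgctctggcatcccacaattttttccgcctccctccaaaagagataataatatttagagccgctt
Lnpk: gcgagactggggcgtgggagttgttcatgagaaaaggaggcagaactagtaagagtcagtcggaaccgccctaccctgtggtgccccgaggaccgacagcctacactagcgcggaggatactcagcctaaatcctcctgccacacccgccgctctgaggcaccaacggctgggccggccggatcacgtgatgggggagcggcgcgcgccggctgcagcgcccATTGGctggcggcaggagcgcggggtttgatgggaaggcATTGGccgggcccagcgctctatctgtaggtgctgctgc
The Evx1 and Evx2 promoters held CAATAAA 230 and 134 bases before the start. The promoter of Lnpk held no CAATAAA, and its CCAAT matches began 28 bases before the start and within the first bases of the transcript.

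All 10 genes were found in the RefSeq promoter table, with 12 promoters between them. Of all 32851 promoters there, 4.6% held CAATAAA on either strand, and among the 10 genes these were Evx1 and Evx2. The longer HOX13-like strings CTCGTAAA (0.131% of all promoters), TCGTAAA (0.597%) and TTTACG (3.03%), of which the first contains the next and the last is the other strand of CGTAAA within both, matched none of the 12. GTAAA, contained in CTCGTAAA and TCGTAAA and found in 31.5% of promoters, matched Hibadh and Tax1bp1. ATAAA, contained in CAATAAA (40% of promoters), matched Evx1 and Evx2, TATAAA (13.6%) matched Evx2, and CCAAT (37.4%) matched Hibadh, Skap2, Lnpk, Atf2, Chn1 and Hnrnpa3. These 8 strings were tried on both strands, after the signals of the genes were known, and a match is a description of the letters only. The promoters also differed in base composition. Evx1 and Evx2 had 12 and 16 CG pairs in 300 bases and a GC content of 48.7% and 44.3%. The other genes had at least 1 promoter with between 19 (Mtx2) and 44 (Hnrnpa3) CG pairs, against a median of 7 over all promoters. Chn1 and Tax1bp1 also had a promoter with 5 and 16 CG pairs, no more than Evx2.

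Values are MAS5 signals, in arbitrary linear units that the authors scaled to a common trimmed mean of about 500.003 on each of the 4 arrays. A level can be compared between arrays for the same probe set, not between probe sets. For the test, signals under 14.1 units were raised to that floor, and probe sets were compared with limma where their geometric mean reached 39.6 units. Of the 22 probe sets, 19 were tested, and all 19 reached that mean in each group taken alone. The 3 others, for Tax1bp1, Lnpk and Atf2, were too dim. Differences are log2, Hox13dKO minus wild type, ± SE, with 95% intervals. Adjusted p-values are Benjamini-Hochberg over all 27022 probe sets tested, with a threshold of 0.05.

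The targeted genes read lower on both Hox13dKO arrays than on both wild-type arrays. Hoxd13 read 5.79 and 9.58 units in Hox13dKO, against 14540 and 16117 in wild type, by its brightest probe set. Hoxa13 read 52.4 and 58.0 in Hox13dKO against 842 and 1463 in wild type. Hoxd12 read 5.23 and 33.5 against 1208 and 2171, and Hoxd11 read 348 and 454 against 1831 and 1745. The Hoxd11 signal was thus reduced to a ratio of 0.222 and stayed well above the floor, although the label gives the gene as deleted, and where its probes lie was not examined. Limb mesenchyme markers summed to between 26674 and 27704 units in Hox13dKO and between 27145 and 27672 in wild type, with 8 of 8 measured. That sum joins members that went opposite ways: 3 of the 8 differences were positive, and none passed the threshold. For example, without overlap between the groups, Prrx1 (0.48 ± 0.16) and Tbx5 (1.02 ± 0.32) read higher, and Hand2 (-0.53 ± 0.23) and Msx1 (-0.35 ± 0.15) lower. Markers of the proximal limb (4 of 4 measured) summed to 10014 and 11238 in Hox13dKO and to 3726 and 2957 in wild type. The 2 that rose past the threshold, Hoxa11 and Shox2, made up most of the sum in Hox13dKO. Meis2 read higher without passing, and Meis1 overlapped between the groups. Hoxa11 is itself an untargeted gene of HoxA. Muscle markers (6 of 6) summed to 1504 and 3370 in Hox13dKO and to 398 and 434 in wild type, with 1 of them, Actc1, past the threshold and making up most of the sum in Hox13dKO. Pax3 went the other way, by -1.16, without passing. Endothelial markers (4 of 4) were all positive with a median of 0.59 and none past the threshold, and summed to 1710 and 2192 in Hox13dKO and to 1211 and 1396 in wild type. The ratio of 5′ to 3′ actin signal was 0.728 and 0.771 on the Hox13dKO arrays and 0.473 and 0.764 on the wild-type arrays, the low one being replicate 1. The part of the mesenchyme, muscle, endothelial, proximal limb and actin values in the results was not tested.

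Of the flanking genes, Lnpk fell in the Hox13dKO autopod and no other passed the threshold. Lnpk, on the Hoxd13 side of HoxD, read 2.07-fold lower. Evx1, on the Hoxa13 side of HoxA, read higher on both Hox13dKO arrays but did not pass. The signals of Evx2 overlapped between the groups. In all, 1 of 19 probe sets passed, and it was lower, against 0.207% of all probe sets tested and 0.0925% for lower ones, and 1 of 9 genes by its brightest probe set, against 0.306% of 13072 genes in either direction and 0.145% in the lower one. Higher calls made up 0.115% of all probe sets and numbered 0 of 19. Without adjustment 4 of 19 had p under 0.05, belonging to Lnpk, Evx1 and Tax1bp1, against 6.26% of all.

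**Figure D1:**
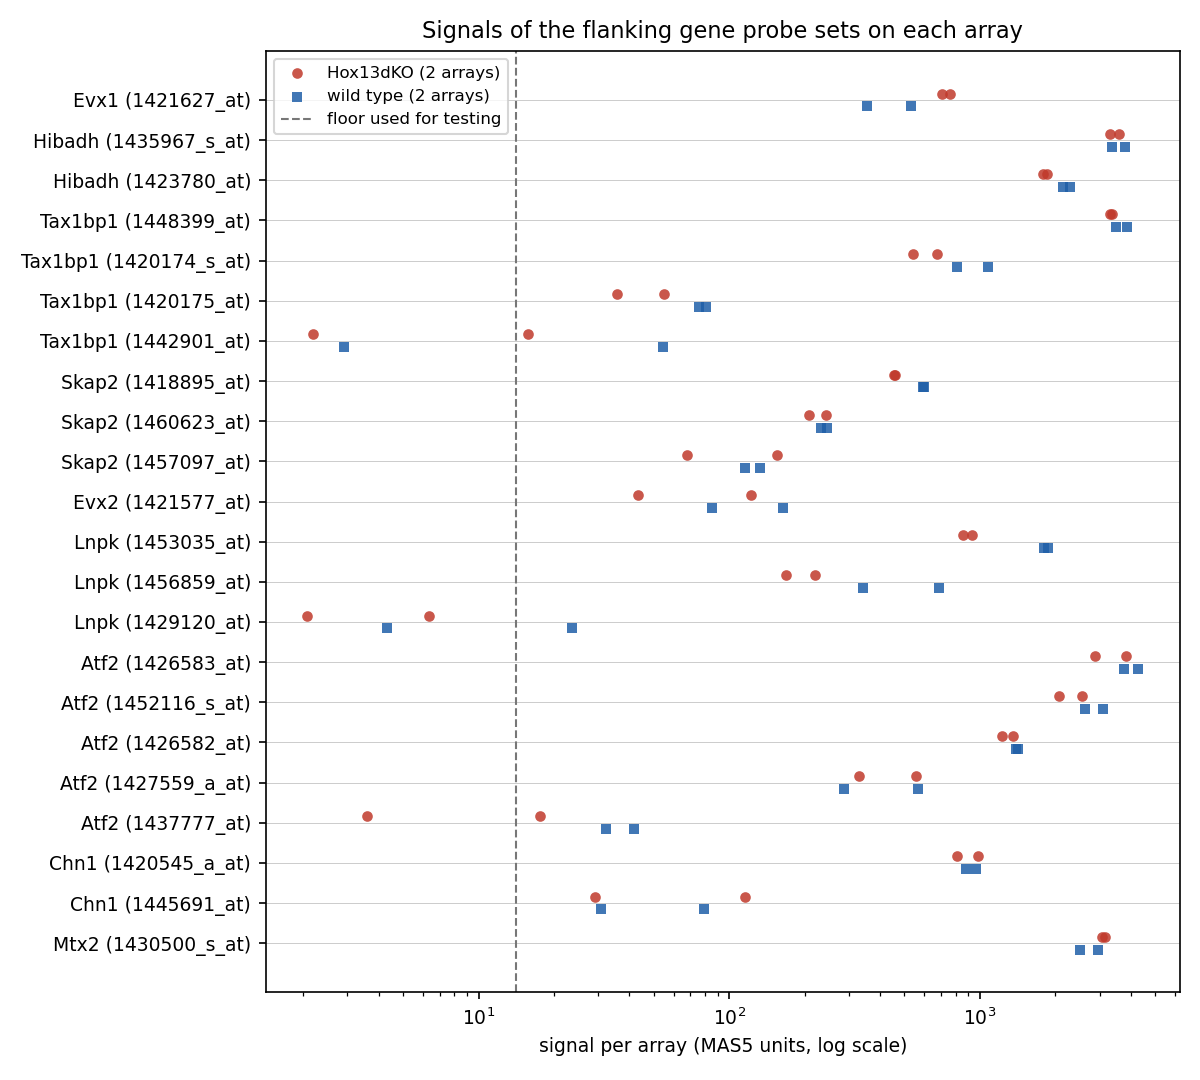
Signal of each flanking gene probe set (rows) on each of the 4 arrays, in MAS5 units on a log axis, with Hox13dKO as circles, wild type as squares and the floor of 14.1 units as a dashed line. Of the 19 tested probe sets, both Hox13dKO arrays lie below both wild-type arrays for 9, against 18.3% of all, among them 2 of Lnpk and several of Tax1bp1 and Atf2. They lie above for 2, Evx1 and Mtx2, against 16.3% of all. The groups overlap for 8, among them those of Evx2 and Chn1. Levels are not comparable between rows.

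Lnpk encodes lunapark, a membrane protein that stabilises the three-way junctions of the endoplasmic reticulum. Its brightest probe set (1453035_at) read 927 and 853 units in the Hox13dKO samples, against 1807 and 1875 in wild type. The means were 890 ± 52.0 and 1841 ± 48.2 (SD, n = 2 each). Both Hox13dKO arrays thus lay near the same level, well below both wild-type arrays. The difference was -1.05 ± 0.15 (95% interval -1.39 to -0.71; limma adjusted p = 0.0492), a ratio of 0.483 with an interval of 0.381 to 0.612. A further Lnpk probe set (1456859_at) read 219 and 168 in Hox13dKO, against 687 and 340 in wild type. There too the groups did not overlap, but the wild-type arrays differed by more than the Hox13dKO arrays. It gave -1.33 ± 0.36 (interval -2.16 to -0.51; adjusted p = 0.367). The last Lnpk probe set (1429120_at) read 6.35 and 2.07 in Hox13dKO, against 4.32 and 23.5 in wild type, below the floor on 3 of the 4 arrays, and was not tested.

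The Lnpk call sat at the edge of the threshold: its p ranked 56th of all probe sets, and 56 passed. Over the 15 alternative settings its difference stayed between -1.11 and -0.99, and its adjusted p ranged from 0.00239 to 0.591. It passed in 7 of the 15. Leaving out either Hox13dKO array ended the call, with an adjusted p of 0.244 without replicate 1 and of 0.317 without replicate 2. Leaving out either wild-type array kept it, with differences of -1.08 without replicate 1 and -1.02 without replicate 2. Fits without a wild-type array called more of all probe sets than the reported fit, and fits without a Hox13dKO array fewer. After quantile normalization the limma adjusted p was 0.0515, and without the intensity trend 0.591. With the replicate number as a block it was 0.00239, and 1456859_at passed as well (limma adjusted p = 0.0216). That setting called 1.55% of all probe sets, against 0.207% as reported. The probe set 1456859_at also passed without wild type replicate 2, at -1.84, and ranged from -1.84 to -0.83 over its 14 alternatives.

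In bulk tissue, fewer cells that express Lnpk and less Lnpk RNA per cell cannot be told apart. Neuron markers also read lower in Hox13dKO: 4 of the 7 listed were tested, none passed, and the median difference was -0.81. Their signals, for the 6 with a probe set, summed to 380 and 594 in Hox13dKO and to 835 and 983 in wild type, with Neurog2 below the floor on all arrays. Their part in the Lnpk result was not tested.

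The genes whose 4-array profile was nearest to that of Lnpk, out of 13071, were Mical1, Bmp2 and Creb5. Likeness was the Euclidean distance between log2 signals centred on each gene's mean. It was 0.023 for Mical1, a monooxygenase that disassembles actin filaments, 0.095 for Bmp2, a BMP ligand of the posterior limb bud, and 0.11 for Creb5, a bZIP transcription factor gene. Their differences were -1.03 ± 0.17, -1.05 ± 0.18 and -0.96 ± 0.36 (SE), and none passed the threshold (limma adjusted p = 0.0922, 0.102 and 0.674). Creb5 lies on the HoxA side, beyond Tax1bp1 and Jazf1.

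**Figure D2:**
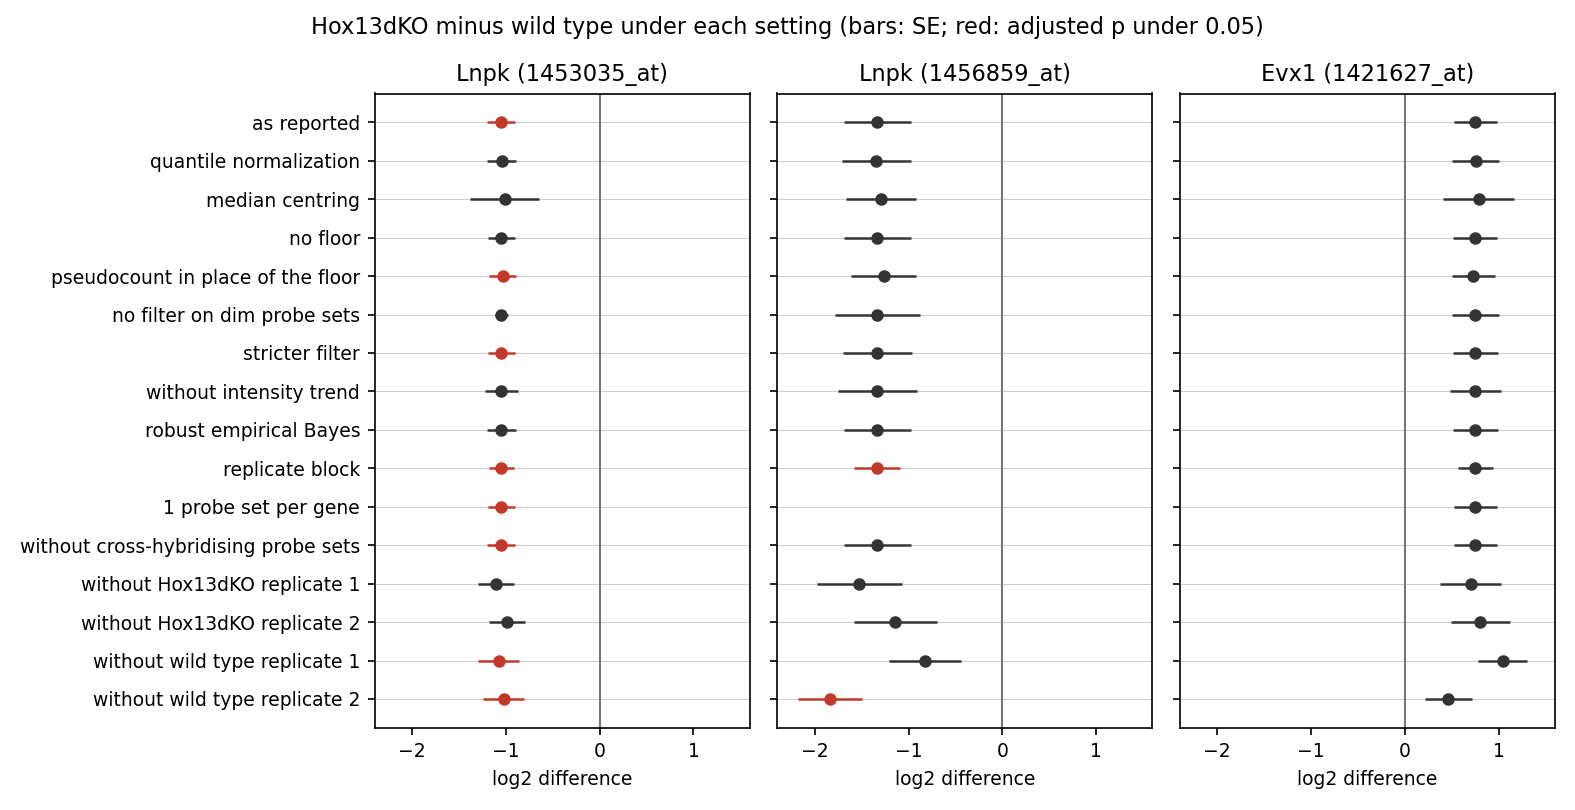
Log2 difference (Hox13dKO minus wild type, x axis) with its SE for 2 Lnpk probe sets and Evx1 under each processing setting (rows), in red where the adjusted p was under 0.05. Lnpk stayed near -1 by 1453035_at throughout, whereas 1456859_at ranged from -1.84 to -0.83 and Evx1 from 0.47 to 1.04 as arrays were left out.

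Evx1 and Evx2 are paralogous homeobox genes related to the fly gene even-skipped, known for specifying spinal interneurons and both transcribed in the limb bud. Evx1 read 759 and 706 units in Hox13dKO, against 530 and 355 in wild type (means 733 ± 37.6 and 443 ± 124, SD, n = 2 each). Both Hox13dKO arrays lay above both wild-type arrays, and the wild-type arrays were the more scattered. The difference was 0.75 ± 0.23 (interval 0.21 to 1.29), with an adjusted p of 0.531 in limma, so it did not pass. It stayed positive under all 15 alternatives, with adjusted p from 0.0510 to 0.972. Evx1os, the RNA transcribed next to Evx1 in the opposite sense, differed by 0.32 ± 0.30 (interval -0.36 to 1.01).

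Evx2 read 43.1 and 123 units in Hox13dKO, against 85.4 and 164 in wild type. In each group the replicate 2 array read higher than the replicate 1 array, and the groups overlapped. The difference was -0.71 ± 0.62, and its interval of -2.12 to 0.71 covers a large decrease as well as an increase. Leaving out 1 Hox13dKO array moved it to 0.048 (replicate 1) or -1.46 (replicate 2). With this spread between replicates the arrays cannot show whether Evx2, the gene nearest to the deleted Hoxd13, differed. Whether Evx1 and Evx2 differed from each other in their response was not tested.

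Further out on the Hoxd13 side, Atf2 and Chn1 did not pass. Atf2 encodes a stress-responsive bZIP transcription factor and had 5 probe sets. The brightest (1426583_at) read 3822 and 2868 units in Hox13dKO, against 4277 and 3771 in wild type, and the groups overlapped by a narrow margin. It gave -0.28 ± 0.17 (interval -0.67 to 0.11). The probe set 1452116_s_at read 2542 and 2066 in Hox13dKO, against 3104 and 2624 in wild type, without overlap, and gave -0.32 ± 0.16. The probe set 1426582_at gave -0.13 ± 0.15, and 1427559_a_at, whose arrays ranged from 287 to 567, gave 0.09 ± 0.37. The dim 1437777_at read 3.60 and 17.6 in Hox13dKO, against 32.2 and 41.7 in wild type, and was not tested. Adjusted p was between 0.870 and 0.985 for the 4 tested.

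Chn1 encodes a chimaerin, a Rac GTPase-activating protein of axon guidance. Its brightest probe set read 810 and 981 units in Hox13dKO, against 882 and 961 in wild type. The groups overlapped, and the difference of -0.05 ± 0.17 had an interval of -0.45 to 0.36, a ratio between 0.733 and 1.28. The dimmer probe set of Chn1 (1445691_at) was too variable to read, with 29.2 and 116 in Hox13dKO, against 79.5 and 30.7 in wild type (0.23 ± 0.84). Atp5g3, a subunit gene of mitochondrial ATP synthase that lies between Atf2 and Lnpk, differed by -0.07 ± 0.15.

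On the Hoxd1 side of HoxD, Mtx2, which encodes metaxin 2 of the mitochondrial import machinery, did not pass either. It read 3161 and 3077 units in Hox13dKO, against 2951 and 2513 in wild type. Both Hox13dKO arrays lay above both wild-type arrays, by a small margin. The difference was 0.20 ± 0.14 (interval -0.13 to 0.52; limma adjusted p = 0.921), and the interval of the ratio ran from 0.916 to 1.43. This only probe set of Mtx2 (1430500_s_at) is of the kind dropped as cross-hybridising in an alternative setting. The 4 probe sets shared by Hnrnpa3, a nuclear RNA-binding protein gene, and Gm6793 differed by between -0.03 and 0.07. The brightest of these read 16227 and 17400 in Hox13dKO, against 16605 and 16093 in wild type. The signals of the gene and the pseudogene cannot be told apart.

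**Figure D3:**
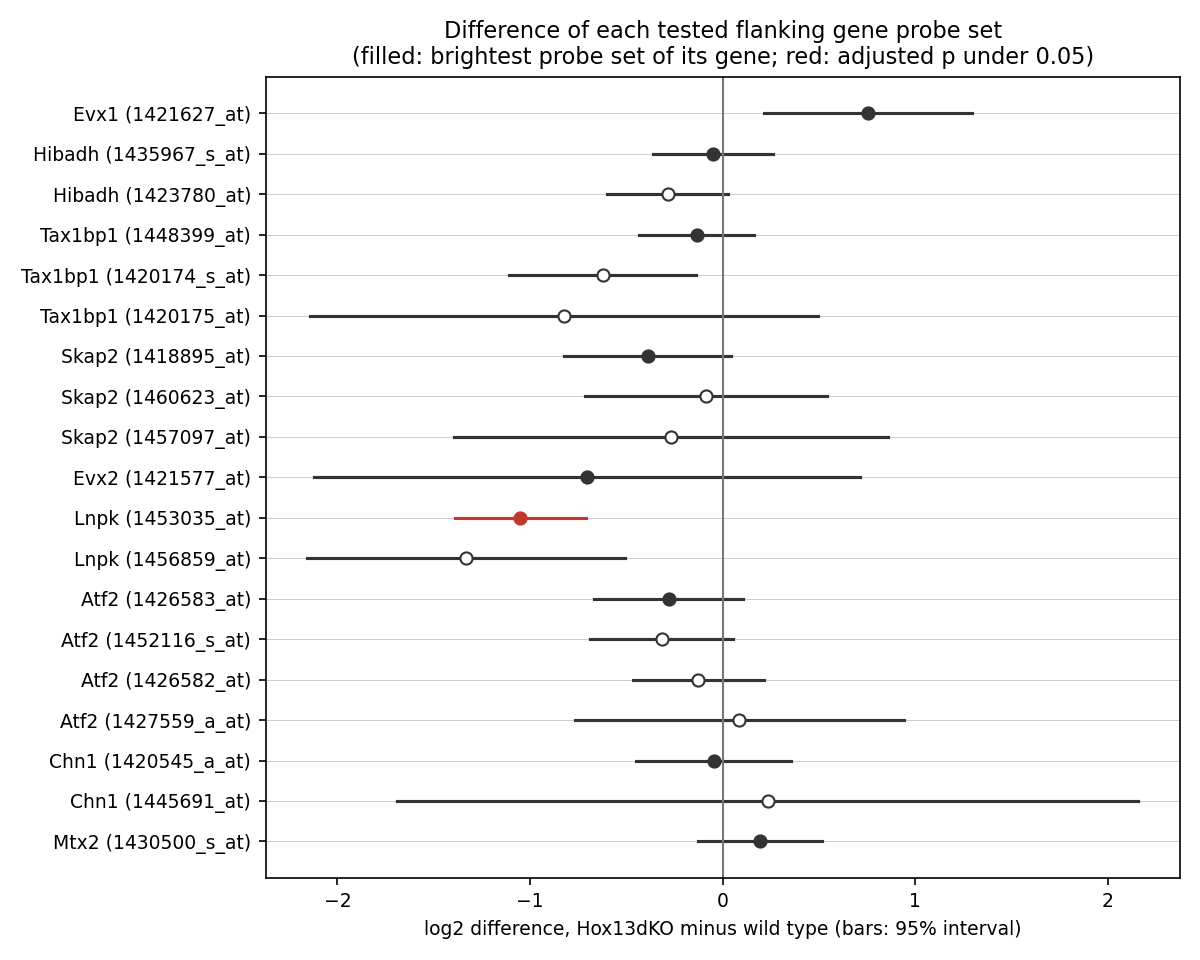
Log2 difference (Hox13dKO minus wild type, x axis) of the 19 tested flanking gene probe sets with 95% intervals, filled for the brightest probe set of each gene and red where the adjusted p was under 0.05. The intervals of both Lnpk probe sets, of Evx1 and of 1 Tax1bp1 probe set leave out 0, and 1 Lnpk probe set is red.

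Beside HoxA, the genes beyond Evx1 did not pass. Hibadh, an enzyme of valine breakdown, read 3576 and 3306 units in Hox13dKO, against 3773 and 3352 in wild type, by its brightest probe set, with overlap between the groups (-0.05 ± 0.14). A further Hibadh probe set (1423780_at) read 1848 and 1777 in Hox13dKO, against 2277 and 2142 in wild type, without overlap (-0.29 ± 0.14, interval -0.60 to 0.03).

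The tested probe sets of Tax1bp1, an autophagy receptor and inhibitor of NF-kappaB signalling, all read lower in Hox13dKO but gave unequal sizes. The brightest (1448399_at) read 3315 and 3376 units in Hox13dKO, against 3859 and 3496 in wild type, a difference of -0.13 ± 0.13. The probe set 1420174_s_at read 676 and 542 in Hox13dKO, against 1075 and 808 in wild type. It gave -0.62 ± 0.21 (interval -1.11 to -0.14; limma adjusted p = 0.601). The dimmer 1420175_at gave -0.82 ± 0.57. The groups did not overlap for any of these, and none passed the threshold. The intervals of 1448399_at (-0.43 to 0.16) and 1420174_s_at overlap. The untested 1442901_at read 2.19 and 15.7 in Hox13dKO, against 2.91 and 54.3 in wild type, with overlap between the groups.

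Skap2, a Src kinase adaptor gene across HoxA from Evx1, read 457 and 455 units in Hox13dKO, against 599 and 595 in wild type, by its brightest probe set (1418895_at). The arrays of each group agreed closely and the groups stood apart, by -0.39 ± 0.19 (interval -0.82 to 0.04; limma adjusted p = 0.853). The fit's SE draws on the spread of other probe sets of like brightness, so it is wider than the spread of these 4 values. For its other probe sets the groups overlapped, with differences of -0.08 ± 0.27 for 1460623_at and -0.27 ± 0.49 for 1457097_at.

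Read across the probe sets, most signs were negative, but this is less marked by gene. Of the 19 tested probe sets 15 had a negative difference, against 51.7% of all probe sets. Both Hox13dKO arrays lay below both wild-type arrays in 9 of 19, against 18.3% of all, and above them in 2, against 16.3%. Taken in either direction that is 11 of 19, against 34.6%. Probe sets of the same gene share their transcript, and these 19 come from 9 genes. Several of the 9 lower ones belong to Tax1bp1, Lnpk and Atf2. Taking only the brightest probe sets, Tax1bp1, Skap2 and Lnpk lay below and Evx1 and Mtx2 above. The groups overlapped for Hibadh, Evx2, Atf2 and Chn1. The matching share over all genes was not computed. By brightest probe set 7 of 9 genes were negative, against 54.2% of 13072 genes. So few genes cannot be set apart from that share, and the excess was not tested. Of the 7, Hibadh, Evx2 and Chn1 turned positive when an array was left out. The median was -0.13 over the 9 genes, against -0.03 over all genes. The median log2 signal of the 9 genes varied between arrays of a group with a pooled SD of 0.0488. That SD describes the signal level on the arrays, not the spread of the median difference. All but 1 of the probe set differences failed the test, and the direction of several rests on 1 array.

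The untargeted Hox genes tested between these flanking genes all had positive differences by their brightest probe sets. Between Skap2 and Hoxa13, 8 untargeted Hoxa genes were measured, with differences from 0.52 to 3.72, and Hoxa7 and Hoxa11 were past the threshold. In HoxD, the 4 untargeted genes measured ranged from 0.08 (Hoxd10) to 2.72 (Hoxd3), with Hoxd8 and Hoxd9 past the threshold. The dim Hoxd1 probe set was not tested. On the sides of the clusters away from Hoxa13 and Hoxd13, Skap2 and Mtx2 differed by -0.39 and 0.20, with neither past the threshold. Whether these differ from the Hox genes beside them was not tested. Of the RNAs transcribed within the clusters, 4 were measured and none passed. In HoxA, Hoxa11os differed by -0.05 ± 0.19 and Gm15050 by -0.92 ± 0.56. In HoxD, Hoxd3os1 differed by 3.14 ± 0.49 (limma adjusted p = 0.0719) and Gm38462 by 2.33 ± 0.47 (limma adjusted p = 0.162). Hotairm1, Halr1, Hottip and Haglr had no probe set under these names.

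**Figure D4:**
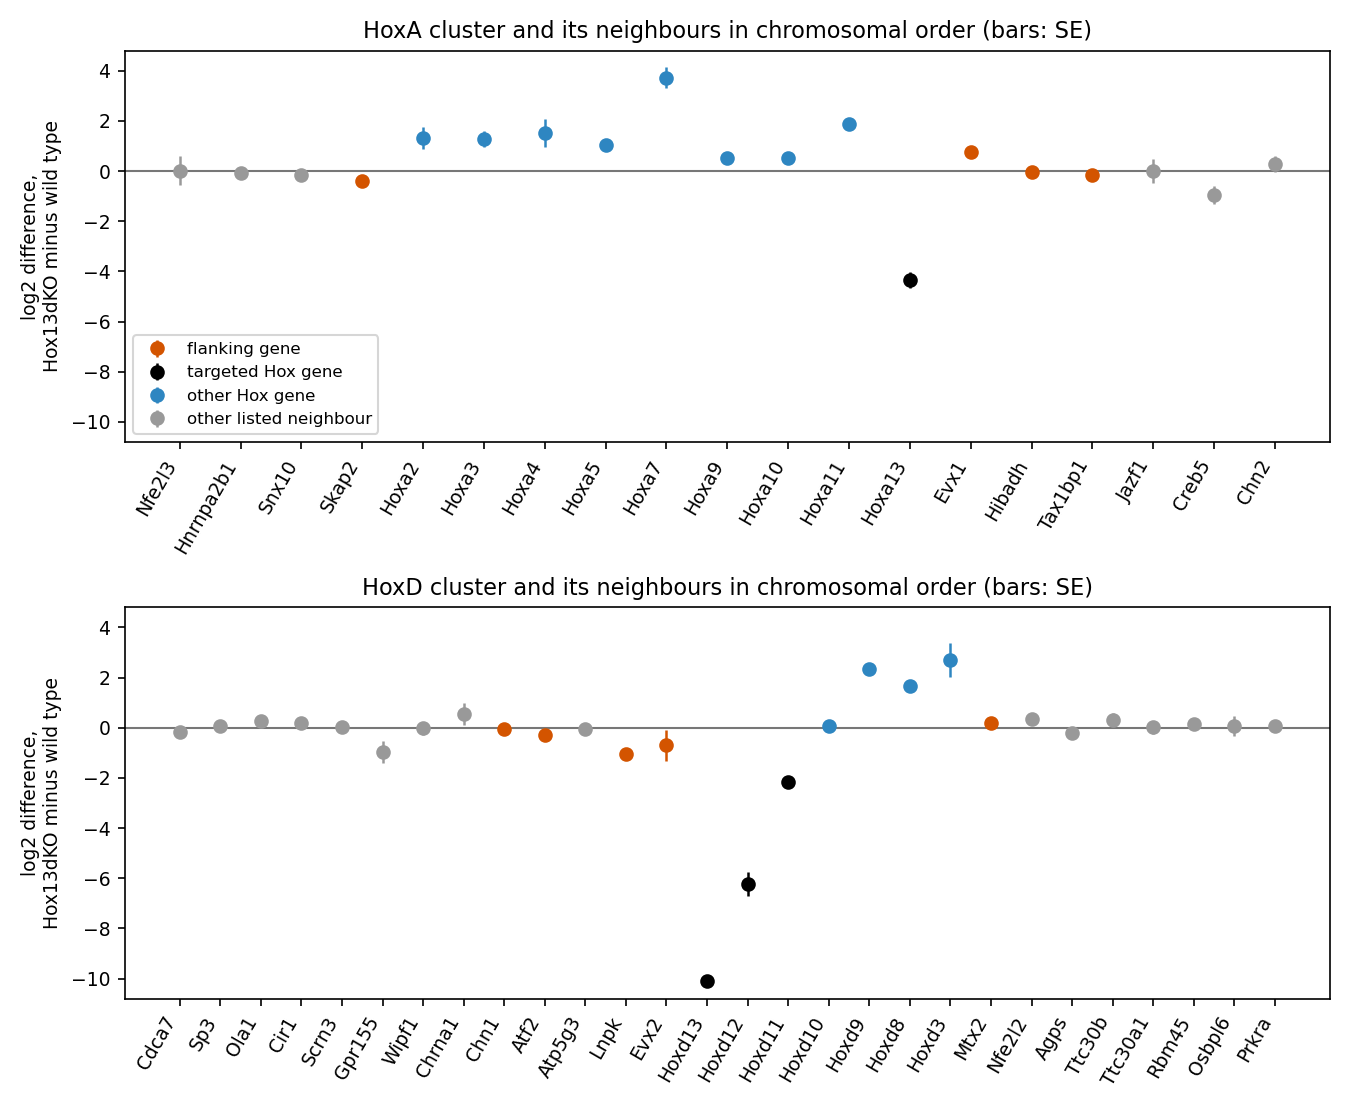
Log2 difference (Hox13dKO minus wild type, y axis) with its SE for the measured genes of HoxA (upper) and HoxD (lower) and their listed neighbours, in chromosomal order on the x axis without distances, by brightest probe set. Apart from Lnpk at -1.05, Evx1 at 0.75 and the imprecise Evx2 at -0.71, the flanking genes lie between -0.39 and 0.20, whereas the untargeted Hox genes lie between 0.08 and 3.72.

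Other listed neighbours gave no call. The list held 27 genes, Atp5g3 and 26 lying further out, of which 22 in all were tested. Of these 0 passed in limma, against 0.306% of all genes tested. With a share that low, 22 genes without a call are not unusual. Only Creb5 had an unadjusted limma p under 0.05, 1 of 22 genes, against 6.26% of all probe sets, a share not taken by gene. The separate limma fit with 1 probe set per gene gave 1066 of 13072. The differences were negative for 9, against 54.2% of all genes, and positive for 13, with a median of 0.03. The list did not take in every gene of these stretches. Of the protein-coding genes it left out, Tril, between Creb5 and Cpvl, differed by 0.68 ± 0.16 (limma adjusted p = 0.235) and had a lower p than Creb5, and Ttc30a2 differed by -0.68 ± 0.53. Creb5 read 95.6 and 92.5 units in Hox13dKO, against 183 and 182 in wild type, by its brightest probe set, which stands apart between groups. Its other 3 probe sets were too dim to test, and 1 of them (1457222_at) read higher in Hox13dKO, at 38.2 and 43.2, against 19.1 and 19.3 in wild type. Jazf1, the gene next to Tax1bp1, differed by -0.00 ± 0.49, and Snx10, the gene next to Skap2, by -0.14 ± 0.20. On the HoxD side, Chrna1, a muscle acetylcholine receptor gene next to Chn1, differed by 0.55 ± 0.43, and Nfe2l2, an oxidative stress regulator next to Hnrnpa3, by 0.35 ± 0.15. The lowest of the 22 was Gpr155, a lysosomal cholesterol sensor gene on the Hoxd13 side, at -0.97 ± 0.45 (adjusted p = 0.837).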

How the data were processed

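Total RNA of 4 autopod samples, 2 Hox13dKO and 2 wild type, was hybridised to 1 array each. The values are intensity per probe set on a linear scale, made and deposited by the authors with MAS5, per the submitters' processing notes, whose version is not stated there. That algorithm removes background, combines perfect-match and mismatch probes and scales each array. Detection calls and scanner data were not used here, and 2 arrays per group limit the precision.

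The platform annotation gave 1 symbol to 34958 probe sets, several to 932 and none to 9211. The members and gene lists were chosen with earlier results of these data known. Sides and neighbours were taken from gene order in RefSeq GRCm38.p6. The 64 control probe sets were left out. Signals were raised to the 20th percentile of all values, log2 was taken without further normalization, and probe sets at or above the 40th percentile of mean log2 signal were tested with limma 3.58.1 in R 4.3.3 (eBayes with intensity trend, two-sided, 2 residual and 6.05 prior degrees of freedom). A gene's brightest probe set with 1 symbol represents it. The others are described beside it for the flanking genes and Creb5, and not for the remaining genes. Named genes are all members, the targeted genes, genes at the cluster ends, neighbours next to the outermost members, and the 3 nearest profiles to the member with the lowest p; all other genes, such as Gpr155, Tril, Ttc30a2, Atp5g3, the RNAs within the clusters, Hox genes past the threshold or at the ends of ranges, and single markers, were named after their values were seen. Replicate samples may differ for technical as well as biological reasons. With 2 against 2 arrays an exact permutation test cannot go below p = 0.333, so none is given. The alternatives are those in the closing section. To check the code, the fit was run on simulated arrays whose noise was independent and depended only on signal level. Real arrays can differ from that, so the check does not bear on the calls reported here. Figures were drawn with matplotlib 3.10.9.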

Additional observations from a re-analysis of the deposited data

How the results depend on the processing

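Over 15 alternatives the 19 tested probe sets gave 267 further values, of which 246 kept their direction and their side of the threshold. The count of all probe sets past the threshold, 56, was 213 after median centring, 0 without the filter on dim probe sets (3159 at an unadjusted p under 0.05 in limma), 1 without the intensity trend, 418 with the replicate block and 95 with 1 probe set per gene, and between 16 and 467 as arrays were left out, the lowest with Hox13dKO replicate 2 and the highest with wild type replicate 2 removed. The flanking count, 1 probe set and 1 gene (Lnpk), was 0 after quantile normalization, median centring, with no floor, without the filter, without the trend and with robust empirical Bayes, and the gene count was 0 with the mean over probe sets. With arrays left out it lay between 0 and 2 probe sets and between 0 and 1 genes; the lone array of a group is then assumed to vary like the others. With the replicate block 2 Lnpk probe sets passed. Replicate 1 minus replicate 2 correlated at r = 0.198 between the groups, but with 2 pairs and no label that ties a number to a litter or day, the arrays share only a number. The count of wider neighbours was 0 in every setting run. The median of the flanking genes, -0.13, was -0.25 with the mean over probe sets, -0.28 when cross-hybridising ones were dropped, and between -0.21 and -0.11 with arrays left out. Dropping the cross-hybridising probe sets removes Mtx2, whose only probe set is of that kind, and represents Hibadh by 1423780_at. The median of -0.28 is thus not over the same genes and probe sets.

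The sign turned for some uncalled probe sets when an array was left out. The ranges were -0.13 to 0.037 for Hibadh 1435967_s_at, -0.20 to 0.031 for Skap2 1460623_at, -0.87 to 0.33 for Skap2 1457097_at and -1.46 to 0.048 for Evx2. They were -0.40 to 0.58 for Atf2 1427559_a_at, -0.18 to 0.092 for Chn1 1420545_a_at and -0.76 to 1.23 for Chn1 1445691_at. The causes were not tested. Low signals limit what can be said of the 3 untested probe sets, and the spread between replicates limits Evx2.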
